A study of Mus musculus with 4 samples.

Results

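The 10 genes described here encode the machinery of N6-methyladenosine (m6A), a mark written on RNA by a multi-subunit complex, and a further pair of methyltransferases. They were chosen by symbol: Mettl3, Mettl14, Wtap, Virma, Zc3h13, Rbm15, Rbm15b, Cbll1, Mettl16 and Mettl4. All 10 of 10 were found among the 14435 genes of the deposited table. RNA was sequenced from RAW264.7 cells, a mouse macrophage line, treated with Escherichia coli lipopolysaccharide (LPS) for 12 hours. 2 libraries came from cells transfected with an shRNA against Mettl3 (shMettl3) and 2 from cells transfected with a nonspecific shRNA (Control). Both groups received LPS, so values without LPS are not part of the comparison. The series title places METTL3 and NOD1 in the response to LPS, and the comparison asks what differed once Mettl3 was knocked down.

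The labels do not say how many shRNA sequences or clones were used, nor whether replicate libraries were made from separate cultures. The p-values therefore measure only the spread between these libraries, which may be technical. Loss of Mettl3 and any other difference between the transfected populations cannot be told apart. In bulk RNA, fewer cells that express a gene and less of its RNA per cell cannot be told apart.

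As background, METTL3 carries the catalytic site and uses S-adenosylmethionine as the methyl donor. It works as a heterodimer with METTL14, which holds the RNA substrate. A larger set of subunits, WTAP, VIRMA, ZC3H13, RBM15 or RBM15B and CBLL1, binds this core, keeps it in the nucleus and guides it to messenger RNAs. The mark lies mostly near stop codons and in the last exons, where reader proteins bind it and affect RNA decay, splicing and translation. METTL16 and METTL4 act apart from this complex, mainly on structured RNAs and small nuclear RNAs.

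Estimated counts summed to 16342313 and 16767622 in the shMettl3 libraries, against 17142599 and 17193639 in the Control libraries. All 8 of 8 fixed macrophage markers had counts. Their summed level was 8730 to 8780 CPM (counts scaled to library size) in shMettl3 libraries and 13400 to 13700 CPM in Control libraries. By the calls described below, 6 of the 8 fell and 1, Ptprc, rose, beside 22.3% and 21.4% of all tested genes. Spi1 was not called, at 704 and 722 CPM in shMettl3 libraries and 749 and 739 CPM in Control libraries. Of 5 fibroblast markers 3 had a row in the table. Their summed level was 0.345 to 2.14 CPM in shMettl3 libraries and 0 to 0.0603 CPM in Control libraries. The higher value was that of shMettl3 replicate 1, with Col1a1 at 1.01 CPM and Col1a2 at 0.892 CPM. In shMettl3 replicate 2 these were at 0.0575 and 0 CPM. None of the 3 had more than 17 counts in a library, and none passed the filter for testing. Of 5 lymphocyte markers 1 had a row, at 0 to 0.115 CPM in shMettl3 libraries and 0 to 0.0603 CPM in Control libraries. Of 4 epithelial markers 0 had a row, and for markers without a row no level is given. The summed level of the macrophage markers differed between the groups, and the part of this in the results below was not tested.

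Of the 10 genes, 1 fell in shMettl3 cells, Mettl3 itself, and 2 rose, Rbm15b and Rbm15. Calls were made at 0.05 on p-values from the quasi-likelihood test of edgeR, adjusted by Benjamini-Hochberg over the 11035 genes tested, which hold all 10. Changes are log2 fold changes, shMettl3 over Control, with standard errors (SE), on CPM values scaled by TMM. The background is high: 43.7% of all tested genes were called, 21.4% as risen and 22.3% as fallen. 3 called genes of 10 is below that background, so the count itself is no result about these genes. The median log2 fold change was 0.05 over the 10 genes and 0.01 over all tested genes. The shMettl3 and Control libraries did not overlap in CPM for 5 of the 10 genes, where 73.4% of all tested genes did not overlap. In 4 of these 5 genes shMettl3 was higher, as it was for 37.1% of tested genes, and in 1 it was lower, as it was for 36.3%.

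**Figure D1:**
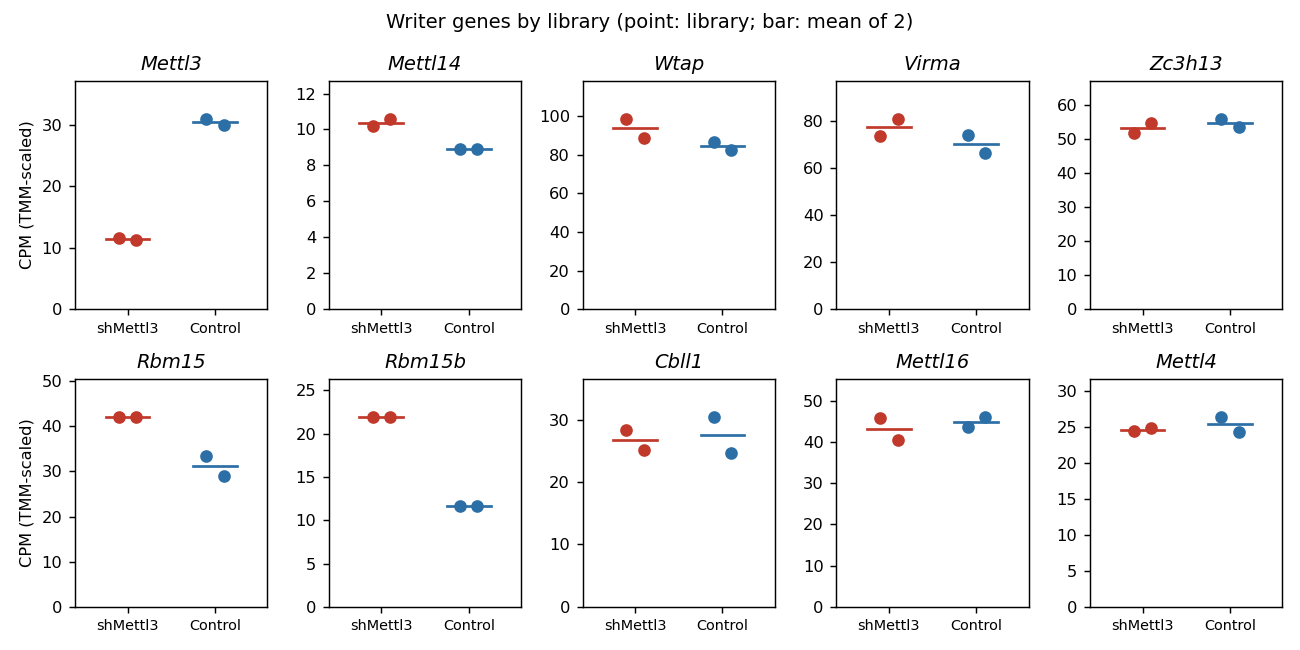
TMM-scaled CPM (vertical axes, each from 0) of the 10 genes in the 2 shMettl3 and 2 Control libraries; points are libraries and bars are group means. Mettl3 is lower and Rbm15 and Rbm15b are higher in both shMettl3 libraries, and the points of Virma, Zc3h13, Cbll1, Mettl16 and Mettl4 overlap between groups.

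Mettl3 (Entrez gene 56335), the catalytic subunit and the target of the shRNA, had 11.5 and 11.2 CPM in shMettl3 libraries, against 30.9 and 29.9 CPM in Control libraries. Both shMettl3 libraries lay far below both Control libraries, and the replicates of each group differed by a factor of 1.03. The level in shMettl3 cells was 37.4% of that in Control cells, with a log2 fold change of -1.42 (95% interval -1.64 to -1.20). It ranked 307 of 11035 tested genes when ordered from the largest fall. It was also called against a change of at least 1.5-fold (adjusted p = 3.38e-05 in edgeR), which 8.63% of tested genes passed. Over all 17 alternative fits the adjusted p was 5.35e-16 to 4.19e-05.

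The count of Mettl3 is in part an estimate, because it shares reads with its neighbour Tox4 (Entrez gene 268741), which encodes a nuclear HMG-box protein. Among the 10 genes, 9 had counts that were whole, within 0.001, in every library, and Mettl3 did not. Mettl3 had estimated counts of 194.16 and 195.34 in shMettl3 libraries, against 513.8 and 495.68 in Control libraries. Tox4 had 2186.84 and 2059.66 in shMettl3 libraries, against 1681.2 and 1513.32 in Control libraries. Added up, they gave whole numbers in every library, 2381 and 2255 for shMettl3 and 2195 and 2009 for Control. In the GENCODE M21 annotation on GRCm38, exons of these genes lie on opposite strands and overlap over 366 bases. The authors' counts and FPKM values imply an effective length of about 1891 bases for Mettl3. How many reads fell in the overlap cannot be read from the table.

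Tox4 went the other way from Mettl3. It rose by 0.37 on the log2 scale (SE 0.08) at an adjusted p of 0.00324 in edgeR, and the adjusted p was 0.0563 without shMettl3 replicate 1 and 0.000199 to 1 over all 17 alternatives. Mettl3 made up 8.2% and 8.7% of the joint count in shMettl3 libraries, against 23.4% and 24.7% in Control libraries. The joint count had a log2 fold change of 0.10 (SE 0.08, adjusted p = 0.32 in edgeR), and was not called. Whether the division of shared reads plays a part in the fall of Mettl3 or the rise of Tox4 was not tested. All 17 alternative fits use the authors' estimates after that division, so they cannot address it.

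**Figure D2:**
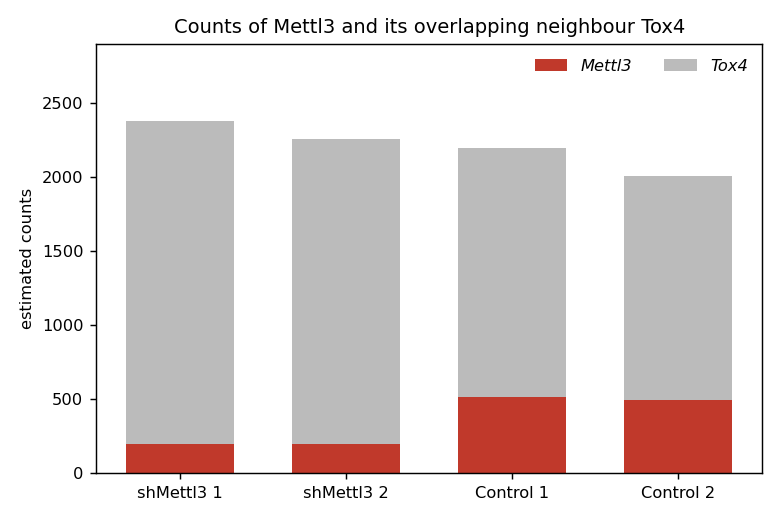
Estimated counts (vertical axis, from 0) of Mettl3 (red) and Tox4 (grey) stacked in each of the 2 shMettl3 and 2 Control libraries. The joint height is a whole number in each library, and the Mettl3 part is 8.2% and 8.7% of it in shMettl3 libraries and 23.4% and 24.7% in Control libraries.

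Mettl14 (Entrez gene 210529), the partner of METTL3 in the heterodimer, was not called. It had 10.2 and 10.6 CPM in shMettl3 libraries, against 8.91 and 8.92 CPM in Control libraries. Both shMettl3 libraries were above both Control libraries, but the gene had only 171 and 184 counts against 148 and 148. The log2 fold change of 0.22 had a 95% interval of -0.06 to 0.50, which bounds the fold between 0.959 and 1.41 (adjusted p = 0.185 in edgeR). On the authors' TPM values, which are scaled to gene length, the ratio of Mettl14 to Mettl3 was 0.681 and 0.725 in shMettl3 libraries, against 0.219 and 0.228 in Control libraries. Within each group the libraries gave close ratios, and Mettl3 was the more abundant transcript of the heterodimer in all 4 libraries. These ratios rest on the Mettl3 estimate after reads were divided with Tox4. With 2 libraries against 2, an exact two-sided permutation test of such a ratio cannot give a p below 0.333.

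The largest rise among the 10 genes was in Rbm15b (Entrez gene 109095), which encodes an RNA-binding adaptor that, in human cells, helps to recruit the complex to its targets. It had 21.9 and 22.0 CPM in shMettl3 libraries, against 11.6 and 11.6 CPM in Control libraries. The groups were far apart and the replicates of each group nearly equal. The log2 fold change was 0.92 (SE 0.11, 95% interval 0.68 to 1.15), or 1.89-fold, with an adjusted p of 4.78e-05 in edgeR. It ranked 596 among the rises of all tested genes and was called in all 17 alternative fits, at log2 fold changes of 0.85 to 1.05. It also passed the test against a 1.5-fold change (adjusted p = 0.0154 in edgeR), and the adjusted p was 1.05e-06 to 0.0154 over the 17 fits. In GENCODE M21, exons of Rbm15b overlap those of Dcaf1 by 75 bases on the opposite strand and those of Manf by 14 bases on the same strand. The counts of Rbm15b were whole in all 4 libraries, at 368 and 382 for shMettl3 and 193 and 193 for Control.

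Rbm15 (Entrez gene 229700), the paralogue with the same role as an adaptor, rose as well. It had 42.1 and 42.0 CPM in shMettl3 libraries, against 33.5 and 28.9 CPM in Control libraries. The groups did not overlap, though the Control libraries differed by a factor of 1.16. The log2 fold change was 0.43 (SE 0.09, 95% interval 0.23 to 0.63), or 1.35-fold, with an adjusted p of 0.00269 in edgeR. Leaving out Control replicate 1 gave 0.53 and leaving out Control replicate 2 gave 0.32, with the call kept in both fits. Against a change of 1.5-fold it was not called (adjusted p = 1 in edgeR), and the adjusted p was 0.000108 to 1 over the 17 alternatives.

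The balance of the paralogues differed between the groups as a description, with no test. The TPM ratio of Rbm15b to Rbm15 was 0.636 and 0.631 in shMettl3 libraries, against 0.439 and 0.514 in Control libraries. Their summed TPM was 32.8 and 33.0 in shMettl3 libraries, against 20.3 and 17.8 in Control libraries. These sums carry the TPM scale, on which the median log2 fold change of all tested genes was 0.15 (pseudocount 0.1), against 0.01 with TMM. Set against Mettl3, Rbm15b was at 1.26 and 1.30 times its TPM in shMettl3 libraries and at 0.247 and 0.256 times in Control libraries. By these TPM values Rbm15b was the more abundant of these transcripts in shMettl3 cells and Mettl3 in Control cells. This order rests on the Mettl3 estimate after reads were divided with Tox4, and the part of that division was not tested.

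**Figure D3:**
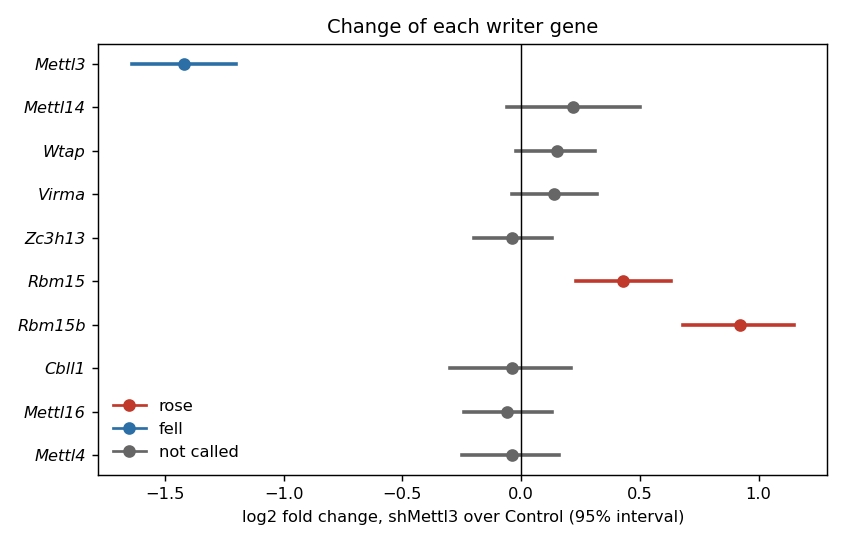
Log2 fold change, shMettl3 over Control (horizontal axis), of the 10 genes with 95% intervals from edgeR's quasi-likelihood fit; colours mark genes that rose, fell or were not called. Mettl3 is at -1.42, Rbm15b at 0.92 and Rbm15 at 0.43, and the intervals of the other genes include 0.

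The start regions of Rbm15b and Rbm15 are shown because both genes were called as risen, as were 21.4% of all tested genes. Windows of the other members are not shown, and whether these windows bear on the rises was not tested. RefSeq promoter windows on GRCm38.p6 run from 250 bases before to 50 bases after the start of a gene, and 8 of the 10 genes were matched by Entrez identifier. The Rbm15b window is chr9:106887026-106887325, minus strand, and the Rbm15 window is chr3:107333240-107333539, minus strand. Capitals mark matches on either strand to any of the motifs searched. The GC box was searched as GGGCGG. The CCAAT box was searched by those letters. The TATA box was searched as TATAAA. The core bound by ETS factors was searched as CCGGAAG.
Rbm15b: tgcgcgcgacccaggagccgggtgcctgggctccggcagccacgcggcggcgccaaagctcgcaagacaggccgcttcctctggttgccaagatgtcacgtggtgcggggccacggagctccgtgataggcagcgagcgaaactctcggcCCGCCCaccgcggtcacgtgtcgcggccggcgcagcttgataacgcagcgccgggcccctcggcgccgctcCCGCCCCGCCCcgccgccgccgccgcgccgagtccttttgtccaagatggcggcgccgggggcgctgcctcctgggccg
Rbm15: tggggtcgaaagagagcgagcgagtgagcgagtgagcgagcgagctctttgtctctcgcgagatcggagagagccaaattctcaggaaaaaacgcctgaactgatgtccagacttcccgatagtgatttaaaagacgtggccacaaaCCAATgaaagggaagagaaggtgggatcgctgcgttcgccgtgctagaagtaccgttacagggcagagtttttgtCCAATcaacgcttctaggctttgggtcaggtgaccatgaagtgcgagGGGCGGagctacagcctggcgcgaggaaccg

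The windows were unlike in composition. The Rbm15b window had 75.3% G and C and 46 CpG dinucleotides, and 98.6% of the 32851 RefSeq windows had as many or fewer. The Rbm15 window had 54.3% G and C and 23 CpG dinucleotides, and 80.0% of windows had as many or fewer. Rbm15b held 3 GC boxes, of which a pair overlaps by a base, and no CCAAT box. Rbm15 held 1 GC box and 2 CCAAT boxes. Of all windows, 35.7% held a GC box and 37.4% a CCAAT box. Neither window held the TATA box, found in 13.6% of windows, or the ETS core, found in 8.9%. A match describes these letters only and is not evidence of a bound factor.

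Wtap (Entrez gene 60532) encodes the subunit that anchors the METTL3 and METTL14 heterodimer in nuclear speckles, as known from human cells. It had 98.6 and 88.9 CPM in shMettl3 libraries, against 86.8 and 82.7 CPM in Control libraries. The groups did not overlap, but the nearest libraries were close. The log2 fold change of 0.15 (SE 0.08, 95% interval -0.02 to 0.31) was not called (adjusted p = 0.143 in edgeR). It was called in 5 of 17 alternative fits, all of them with library size alone, FPKM or TPM as the scaling.

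Virma (Entrez gene 66185), which encodes the large scaffold that in human cells directs methylation towards stop codons, had 73.7 and 80.7 CPM in shMettl3 libraries, against 74.0 and 66.3 CPM in Control libraries. The lower shMettl3 library was just below the higher Control library. The change was 0.14 on the log2 scale, with a 95% interval of -0.04 to 0.32 (adjusted p = 0.194 in edgeR), and 0.21 with an adjusted p of 0.0399 without Control replicate 1. Over the 17 alternatives the adjusted p of Virma was 0.0371 to 1.

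Zc3h13 (Entrez gene 67302), whose product holds the complex in the nucleus of mouse embryonic stem cells, had 51.8 and 54.8 CPM in shMettl3 libraries, against 55.9 and 53.5 CPM in Control libraries. The groups overlapped, and the log2 fold change was -0.04 (95% interval -0.20 to 0.13). Cbll1 (Entrez gene 104836), the ubiquitin ligase Hakai, had 28.3 and 25.1 CPM in shMettl3 libraries, against 30.5 and 24.7 CPM in Control libraries. Its Control libraries differed by a factor of 1.24, the widest spread of a group among the 10 genes, and the log2 fold change of -0.04 had an interval of -0.30 to 0.21. In GENCODE M21 an antisense gene, Gm29542, overlaps 704 exon bases of Cbll1, and without strand its reads and those of Cbll1 cannot be told apart.

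The methyltransferases outside the complex were not called. Mettl16 (Entrez gene 67493), which in human cells methylates a spliceosomal RNA and hairpins of the transcript of MAT2A, had 45.8 and 40.5 CPM in shMettl3 libraries, against 43.6 and 46.1 CPM in Control libraries. The groups overlapped, and the log2 fold change was -0.06 (95% interval -0.24 to 0.13). Mat2a, the S-adenosylmethionine synthetase gene, was not called either, at 0.15 on the log2 scale (SE 0.07, adjusted p = 0.129 in edgeR).

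Mettl4 (Entrez gene 76781), a methyltransferase of small nuclear RNA, bears on the labels, because 1 field of shMettl3 replicate 2 names METTL4 while its title and the series design name Mettl3. It had 24.4 CPM in shMettl3 replicate 1 and 24.8 CPM in shMettl3 replicate 2, against 26.4 and 24.3 CPM in Control libraries. The library with the METTL4 label lay between the Control libraries for Mettl4, and it had the lowest Mettl3 level of all 4 libraries. The log2 fold change of Mettl4 over both shMettl3 libraries was -0.04 (95% interval -0.25 to 0.16). A loss of the size seen for Mettl3 lies outside this interval of the group. The interval does not bound a change in shMettl3 replicate 2 alone.

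The signs of the log2 fold changes of Zc3h13, Cbll1, Mettl16 and Mettl4 turned with the scaling. Those of Zc3h13, Cbll1 and Mettl16 also turned with a library left out. Zc3h13, Cbll1, Mettl16 and Mettl4 were not called in any fit. Library size alone, FPKM with a pseudocount of 0.1 and TPM with a pseudocount of 0.1 put the median log2 fold change of all tested genes at 0.11, 0.10 and 0.15, against 0.01 with TMM. Mettl14, Wtap, Virma, Rbm15 and Rbm15b were positive in all 17 alternative fits. On TPM with a pseudocount of 0.1, 5 of the 10 genes were called as risen, beside 3508 of all 11035 tested genes. Mettl14 (0.36), Wtap (0.34) and Virma (0.29) joined Rbm15b (1.05) and Rbm15 (0.64) there, and 69.9% of all calls were rises.

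**Figure D4:**
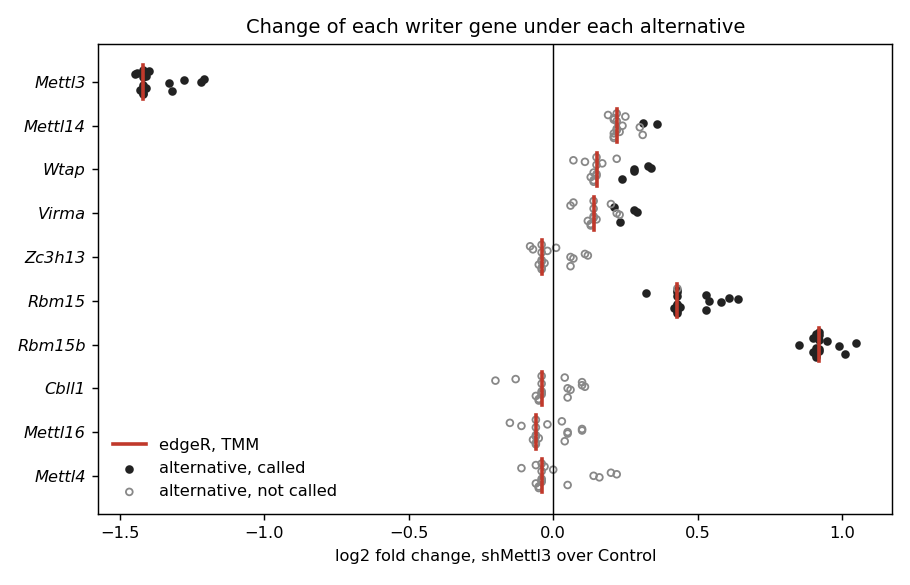
Log2 fold change, shMettl3 over Control (horizontal axis), of the 10 genes under 17 alternative fits; red bars are the edgeR fit with TMM, filled points alternatives in which the gene was called and open points those in which it was not. Mettl3, at -1.45 to -1.21, and Rbm15b, at 0.85 to 1.05, are called throughout, while Zc3h13, Cbll1, Mettl16 and Mettl4 lie on both sides of 0.

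Per unit of gene length, Wtap was the most abundant of the 10 transcripts in both groups and Mettl14 the least. In shMettl3 cells the order of mean TPM was Wtap (64.5), Mettl16 (26.4), Virma (22.4), Rbm15 (20.1), Zc3h13 (14.95), Rbm15b (12.8), Cbll1 (11.6), Mettl4 (11.1), Mettl3 (9.95) and Mettl14 (6.99). Only Cbll1 and Mettl4 overlapped as neighbours in that order. In Control cells it was Wtap (50.9), Mettl16 (24.5), Mettl3 (24.4), Virma (18.4), Zc3h13 (13.8), Rbm15 (12.9), Cbll1 (10.8), Mettl4 (9.54), Rbm15b (6.12) and Mettl14 (5.44). There the values of Mettl16 and Mettl3 overlapped, as did those of Zc3h13 and Rbm15, Rbm15 and Cbll1, and Cbll1 and Mettl4. Mettl3 thus took place 9 of 10 in shMettl3 cells and place 3 in Control cells, by its estimate after reads were divided with Tox4.

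The TPM of the 10 genes added up to 205 and 196.6 in shMettl3 libraries, against 183.3 and 170.1 in Control libraries. Mettl3 was 4.92% and 5.00% of this sum in shMettl3 libraries, against 13.7% and 13.8% in Control libraries. Wtap alone was 33.1% and 31.1% in shMettl3 libraries, against 28.3% and 29.4% in Control libraries. These sums are on the TPM scale, on which the typical gene was higher in shMettl3 cells, as given above. The Mettl3 share also rests on its estimate after that division of reads.

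**Figure D5:**
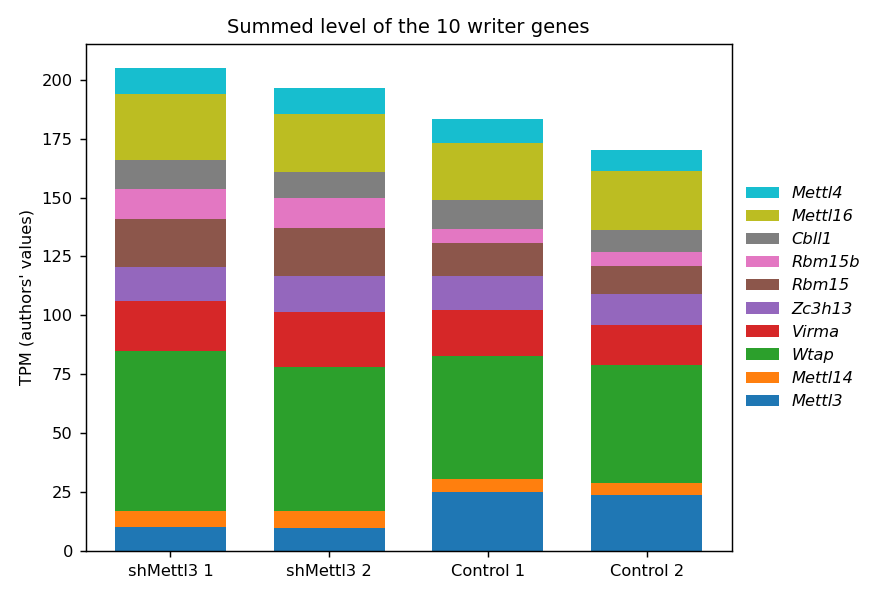
Authors' TPM values (vertical axis, from 0) of the 10 genes stacked in each of the 2 shMettl3 and 2 Control libraries. Mettl3, at the foot of each bar, is 4.92% and 5.00% of the sum in shMettl3 libraries and 13.7% and 13.8% in Control libraries, and Wtap is the tallest segment in all 4.

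The genes most like Mettl3 in their pattern over the 4 libraries were Ext1, Maged2, Retsat, Rassf8 and Ctnnbip1. They had the smallest Euclidean distance to Mettl3 in centred log2 CPM, among 3640 tested genes with a mean CPM within a factor of 2 of that of Mettl3. Ext1, a glycosyltransferase of heparan sulfate synthesis, was nearest at 0.0276, with 12.0 and 11.8 CPM in shMettl3 libraries, against 32.0 and 30.8 CPM in Control libraries. The distances of the other genes were 0.0953 to 0.127, and the log2 fold changes of all of these genes lay between -1.45 and -1.30. The likeness rests on 4 libraries and is a description with no test.

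Genes around the writers are given as counts beside the 43.7% of all tested genes that were called. Fewer genes were called over the whole table with either shMettl3 library left out and in DESeq2. With library size alone, FPKM or TPM, more genes rose and fewer fell. The list counts of those fits, given below, therefore do not share the background of 43.7%. Of 13 genes of reader proteins, which bind m6A, 12 were tested, of which 4 rose and 2 fell, with a median log2 fold change of 0.10. Their 6 calls of 12 are near that background and are no result about the readers. Igf2bp3, which binds and stabilises m6A-marked transcripts, rose by the most (1.73, SE 0.36), from few reads, with 40 and 39 counts in shMettl3 libraries, against 16 and 7 in Control libraries. Its relative Igf2bp2 fell by 0.67 on the log2 scale, with 119 and 116 CPM in shMettl3 libraries, against 192 and 181 CPM in Control libraries. Fmr1, an RNA-binding translational regulator (0.53), and the YTH readers Ythdf1 (0.32) and Ythdc1 (0.28) rose. Ythdf2, which links m6A to RNA decay, was not called, at 0.02 on the log2 scale (SE 0.08). Fewer readers rose and fell with either shMettl3 library left out, as over the whole table. The readers had 1 fall with library size alone, FPKM or TPM, where fewer of all tested genes fell.

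The 2 erasers, which remove the mark, were not called, with a median log2 fold change of -0.07. Fto was at -0.13 on the log2 scale (SE 0.08) and Alkbh5 at -0.01 (SE 0.07), with adjusted p-values of 0.212 and 0.887 in edgeR. Among 4 genes of other m6A and m6Am methyltransferases and their partner, 1 rose, Trmt112, an activator of several methyltransferases (0.27), and 0 fell, beside 43.7% called over all tested genes. Trmt112 lost its call with either shMettl3 library left out, where fewer genes were called over the whole table. The number of the 4 genes that fell also moved without Control replicate 2.

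Of the S-adenosylmethionine cycle, 9 genes were tested, of which 1 rose and 2 fell, with a median of 0.02, beside 43.7% called over all tested genes. Mtr, methionine synthase, rose (0.33), and Ahcyl1 (-0.53) and Ahcyl2 (-0.26), relatives of the hydrolase of S-adenosylhomocysteine, fell. The rise of Mtr lost its call without Control replicate 1, shMettl3 replicate 1 or shMettl3 replicate 2. Fewer genes of the list fell with either shMettl3 library left out, as over the whole table. In DESeq2 0 rose and 1 fell, beside the counts over all tested genes given above. With library size alone or FPKM 2 rose and 1 fell, and with TPM 3 rose and 1 fell. Of 4 reported partners of the complex, 0 rose and 2 fell, with a median of -0.17. The share called is near the 43.7% over all tested genes. Zfp217, a zinc finger protein that binds METTL3 in mouse embryonic stem cells, fell by 0.39 on the log2 scale and Eif3h, a translation initiation factor subunit, by 0.24. Fewer partners fell with either shMettl3 library left out, as over the whole table. The number that fell was 1 with library size alone and 0 with FPKM or TPM, where fewer of all tested genes fell.

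Of 16 tested genes of other METTL proteins, 5 rose and 2 fell, with a median log2 fold change of 0.26. Over all tested genes 43.7% were called and the median was 0.01, so the number of METTL genes called is at the background. Mettl27 (1.44, SE 0.25), Mettl9 (0.66, SE 0.08), a histidine methyltransferase, and Mettl8 (0.52, SE 0.13) rose. Mettl17, a mitochondrial protein, fell by 0.74 on the log2 scale, with 152 and 157 counts in shMettl3 libraries, against 250 and 250 in Control libraries. The number that rose was 3 in DESeq2, where fewer of all tested genes rose, and 8 with FPKM or TPM, where more did. Fewer METTL genes also rose without shMettl3 replicate 1, as over the whole table. The number of called genes over the whole table was 4826 in the main fit.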

How the data were processed

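RNA was measured in 2 shMettl3 and 2 Control libraries, grouped and numbered by sample title. Poly(A)-primed, template-switched and PCR-amplified cDNA was read on a BGISEQ-500 in single 50-base reads, per the labels' protocols. Such libraries do not mark strand, and there are no molecular identifiers, so errors cover counting and the spread between these libraries. The submitters' processing notes name HISAT2 2.0.4, Bowtie2 2.2.5, RSEM 1.2.12 and mm9. Their annotation and filters are not given in the sources.

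The authors deposited unnormalized estimated counts, FPKM and TPM per gene and library, per the file headers. Of 14435 genes, 1808 (12.5%) had counts that were not whole. Counts were rounded. The main test was edgeR 4.0.16 (R 4.3.3), robust quasi-likelihood, TMM factors of 1.03 and 1.04 for shMettl3 and 0.97 and 0.966 for Control, with filterByExpr (minimum count 10, minimum total 15). It kept 11035 genes and left out 3400. SE was taken from the log2 fold change and its F statistic, and intervals are 95%. Alternatives used DESeq2 1.42.0, limma 3.58.1 on counts, FPKM and TPM (pseudocounts 0.1 and 1), other scalings and filters, a replicate block and each library left out. The test against 1.5-fold was added after the data were seen. The fits were also run on simulated counts with the same spread for all genes and both groups. The replicates here differed in spread between the groups, as given next, so that run is a check of the code alone. Replicates were compared first: chi-square over its degrees of freedom was 4.15 within shMettl3 and 11.5 within Control, so neither agrees within sampling noise.

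All 10 members were named, with 5 genes most like Mettl3, and for each related list the called genes with the largest changes, up to 4, plus Fto, Alkbh5, Ythdf2, Ythdc1 and Mat2a. Tox4 was named after its values were seen, because it shares reads with Mettl3. The members and lists were chosen with earlier results of these data known. Identifiers were matched to RefSeq on GRCm38.p6 and overlaps to GENCODE M21 on GRCm38, both later than mm9.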

Additional observations from a re-analysis of the deposited data

How the results depend on the processing

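The fall of Mettl3 and the rise of Rbm15b were called in all 17 alternative fits, and the rise of Rbm15 in 16. With each library left out in turn, the number of genes called ranged from 3095 to 5324, the members that rose from 2 to 3, the members that fell stayed at 1, and Mettl3 was at -1.45 to -1.40. Fits that leave out a library assume that the lone library varies like the other group. With an shMettl3 library left out, the spread came from the Control pair. Chi-square over its degrees of freedom was 11.5 within that pair, against 4.15 within shMettl3. Whether a call lost there follows from the library left out or from that spread was not tested. The members that rose numbered 4 with library size alone, 5 with TPM at either pseudocount and 1 in the test against 1.5-fold, which called 952 genes in all. Of all 11035 tested genes, 3266 rose with library size alone and 415 in the test against 1.5-fold, against 2360 in the main fit. With TPM 3508 rose at a pseudocount of 0.1 and 3536 at 1. The member counts therefore moved with the whole table and are no result about the writers. With library size alone the log2 fold changes of Zc3h13, Cbll1, Mettl16 and Mettl4 were 0.06, 0.05, 0.04 and 0.05. They were 0.07, 0.06, 0.05 and 0.16 with FPKM at a pseudocount of 0.1, and 0.06, 0.05, 0.05 and 0.14 at 1. With TPM they were 0.12, 0.11, 0.10 and 0.22 at 0.1, and 0.11, 0.10, 0.10 and 0.20 at 1. With each library left out in turn, Zc3h13 ranged from -0.08 to 0.01, Cbll1 from -0.20 to 0.10, Mettl16 from -0.15 to 0.03 and Mettl4 from -0.11 to 0.00. None of these was called. The shift of the median gene is given above, and the cause was not tested. For Mettl4, the authors' counts and FPKM values imply an effective length of 3681 to 4044 bases across the libraries. The implied length was 3455 to 3654 bases for Rbm15 and 2415 to 2559 bases for Wtap. The FPKM and TPM values of these genes therefore also carry a length estimate that differs between libraries. With library size alone 64.1% of calls were rises, against 48.9% with TMM.

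The replicate numbers are not said to mark a shared culture, and deviations of libraries with the same number correlated at 0.146 across 11035 genes. With the replicate number as a block 5116 genes were called, and the block changed no call among the 10 members. Mettl14 had 148 to 184 counts a library and an SE of 0.13.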
